A study of Mus musculus with 9 samples.

Results

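The subunits of the mitochondrial respiratory chain encoded in the nucleus were compared between 3 sorted cell populations of the mouse tracheal epithelium. Members were all genes whose symbol marked them as subunits of complex I (Nduf), complex II (Sdh), complex III (Uqcr), complex IV (Cox4 to Cox8) or ATP synthase (Atp5, called complex V). The rule found 81 of the 18193 genes that a probe set with a single symbol represented. They were 33 genes of complex I, 4 of complex II, 8 of complex III, 19 of complex IV and 17 of complex V. Ndufa4 and Ndufa4l2 were counted with complex IV, where the Ndufa4 protein is found. No member was chosen by its measured level, although Cox7b and the 13 subunits encoded in mitochondrial DNA were not analysed here. Ndufa11 and Ndufs6 fit the rule by symbol but are not among the 81, since their probe sets carry several symbols. The brighter of these had a mean of 11.98 for Ndufa11, with gate means of 12.10 in columnar, 11.89 in lectin-only and 11.95 in GFP+. That of Ndufs6 had gate means of 11.62, 11.50 and 11.48 in the same order. Cyc1, a subunit of complex III, lies outside the rule by its symbol and is given with the electron carriers. Where a gene had several probe sets, the one of highest mean signal stood for it.

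All mice were KRT5-GFP hemizygous, so that a keratin 5 promoter drove green fluorescent protein (GFP), and no age or sex is given in the sources used here. Tracheal cells freed by enzymes and dissection were sorted on GFP and on binding of the GSI-A3B isolectin. The GFP+ lectin+ population (the GFP+ gate) and the GFP- lectin+ population (the lectin-only gate) are both labelled as BCs, and the GFP- lectin- population (the columnar gate) is labelled columnar epithelium. Each gate had 3 biological replicates, each hybridised to 1 Affymetrix array of a single colour, and the values are log2 probe set signals. The sources do not say whether a replicate was 1 animal or a pool.

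The gates were checked against marker genes. Basal markers such as Krt5 and Trp63 were called higher than in the columnar gate for 10 of 10 genes in both lectin-binding gates. Ciliated markers were called lower for 12 of 14 genes in the GFP+ gate and for 10 of 14 in the lectin-only gate, and their median level on an array ran from 7.77 to 8.34 in the columnar gate, from 5.14 to 6.10 in the lectin-only gate and from 4.10 to 4.98 in the GFP+ gate. Leukocyte markers were called higher in the lectin-only gate than in the columnar gate for 11 of 13 genes, with array medians of 10.79 to 11.34 against 5.01 to 6.47, and the GFP+ gate lay between at 6.97 to 8.34. Club and secretory markers separated the gates less. They were called lower than in columnar for 3 of 8 genes in GFP+ and 2 of 8 in lectin-only. Their array medians ran from 13.71 to 13.89 in columnar, 13.55 to 13.62 in lectin-only and 13.22 to 13.50 in GFP+. Scgb1a1 had gate means of 13.74, 13.69 and 13.64 in that order, while Muc5b had 13.13, 11.40 and 9.50. Why Scgb1a1 read nearly alike, and whether this bears on bright subunits, was not tested. Of 11 fibroblast and pericyte markers, 3 (Col1a1, Col1a2 and Col3a1) were called lower and Dcn higher in GFP+ than in columnar. In lectin-only, Dcn and Rgs5 were called higher than in columnar. Of 7 smooth muscle markers, 2 were called higher in GFP+ and 3 in lectin-only. Of 6 endothelial markers, Vwf was called lower in GFP+, and Pecam1 and Tek higher in lectin-only. In such bulk samples, fewer cells of a type and less RNA per cell cannot be told apart. Replicate 3 of the lectin-only gate stood apart, with a median over all probe sets of 5.436 where the other 8 arrays had 4.906 to 5.157, so values are also given with every array centred on its own median. How far the mix of cells or this array enters the results on subunits was not tested, except where values without the array are given.

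The respiratory chain passes electrons from NADH and succinate to oxygen and pumps protons across the inner mitochondrial membrane, and ATP synthase uses the returning protons to make ATP. Complex I takes electrons from NADH and complex II from succinate, complex III hands them to cytochrome c, and complex IV reduces oxygen. Each complex other than complex II also holds subunits made inside the mitochondrion, so that nuclear and mitochondrial genes must be expressed together. Multiciliated cells are known for many mitochondria near the apical surface, close to the beating cilia.

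One feature the rule did not use is the sequence before the genes' starts. Nuclear respiratory factor 1 (NRF-1, the product of Nrf1) is a transcription factor long studied on promoters of such genes. RefSeq promoter windows (250 bases before to 50 after the start, build GRCm38.p6) were matched by symbol for 66 of the 81 members. An NRF-1 match, GCGCA followed by any base and GCGC on either strand, was found in 14 of 66 windows (21.2%), against 4.78% of 27025 windows of the same length. Within the 250 bases before the start alone, 10 members (15.2%) held it, against 3.86% of all. The windows' upstream bases had a median GC content of 57% in members and 52% in all genes, and a match with these GC-rich letters is a description, not a binding site. Of the other letters searched on both strands, CCGGAAGT (for GABPA) was in 7.58% of members' windows and 4% of all, AAGATGGCG (for YY1) in 7.58% and 1.49%, and TATAAA (for a TATA box) in 12.1% and 14.2%. Within the 250 bases before the start, the GABPA letters were in 4.55% of members and 2.93% of all, the TATAAA letters in 10.6% and 13%, and the YY1 letters in 0 of 66 members and 0.607% of all, so that every YY1 match in a member reached past the start. No upstream NRF-1 match in a member overlapped a GABPA match. The sequences below show an NRF-1 match, which most members lacked, in the member of highest mean signal in each complex that had an upstream match. In complex III no member had one. The printed stretches are all on the minus strand and written 5′ to 3′ along the gene, with the NRF-1 letters in capitals. The stretch of Ndufa5, which encodes an accessory subunit of complex I, is chr6:24527687-24527736. That of Sdha, the subunit of complex II that oxidises succinate, is chr13:74350241-74350358 and holds 3 matches, the last of which ends at the base just before the start. That of Cox6a1, a complex IV subunit, is chr5:115349046-115349140 and holds 2 matches. That of Atp5h, a subunit of the stalk of ATP synthase, is chr11:115420031-115420080.
Ndufa5: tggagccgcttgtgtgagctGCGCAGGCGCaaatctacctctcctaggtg
Sdha: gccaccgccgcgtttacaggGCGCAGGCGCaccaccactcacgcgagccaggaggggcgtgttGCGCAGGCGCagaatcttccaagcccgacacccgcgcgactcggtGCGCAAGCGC
Cox6a1: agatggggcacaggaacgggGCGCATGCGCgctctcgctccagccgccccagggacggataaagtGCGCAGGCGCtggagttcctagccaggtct
Atp5h: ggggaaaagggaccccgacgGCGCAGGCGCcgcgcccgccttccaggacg

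Transcripts of the respiratory chain differed little between the gates. None of the 81 members passed the test in any comparison (limma, Benjamini-Hochberg adjusted p under 0.05 over all genes), although many other genes did. Among all 18193 genes, 14.1% were called in GFP+ against columnar, 10.6% in lectin-only against columnar and 4.17% in GFP+ against lectin-only. At an unadjusted p under 0.05, 8, 1 and 1 of the members passed in the same order, against 25.1%, 21.8% and 15.3% of all genes. The smallest adjusted p of a member was 0.0933 in GFP+ against columnar (Cox8a), 0.179 in lectin-only against columnar (Ndufa4) and 0.162 in GFP+ against lectin-only (Ndufa4, limma in each case). With every probe set of a member tested as a feature of its own, 3 of 164 were called in GFP+ against columnar, 1 in lectin-only against columnar and 0 in GFP+ against lectin-only, where 10.3%, 7.25% and 2.38% of all such probe sets were. Those calls belonged to Uqcr10 and Ndufb8 and are described with their complexes.

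Of the 81 members, 77 were above the background level of 3.35 (the 95th percentile of the means of olfactory and vomeronasal receptor probe sets) on all 9 arrays, and all 81 entered the test. A difference between gates had a median standard error of 0.19 on the log2 scale in members and 0.24 in all genes. The 95% interval lay wholly within a 2-fold change either way for 72 of 81 members in GFP+ against columnar, 75 in lectin-only against columnar and 76 in GFP+ against lectin-only. For all genes that share was 60.6%, 63.4% and 67%, and for members it was 88.9%, 92.6% and 93.8%. Differences in GFP+ against columnar ran from -0.57 (Uqcr10) to 0.45 (Uqcrc1). Smaller changes than these intervals allow were not detectable with 3 arrays per gate, and a missed threshold does not show that a subunit was at the same level.

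Most of the small differences lay on the same side. In GFP+ against columnar, 61 of 81 members lay below 0 (75.3%, all genes 53.8%), and the median was -0.12 (all genes -0.04). In lectin-only against columnar 51 lay below 0 (63%, all genes 41%), with a median of -0.10 where all genes had 0.07. In GFP+ against lectin-only 55 lay below 0 (67.9%, all genes 64.1%), and the medians were -0.06 and -0.10. The comparisons with the columnar gate share its 3 arrays, so their like signs are not separate evidence.

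**Figure D1:**
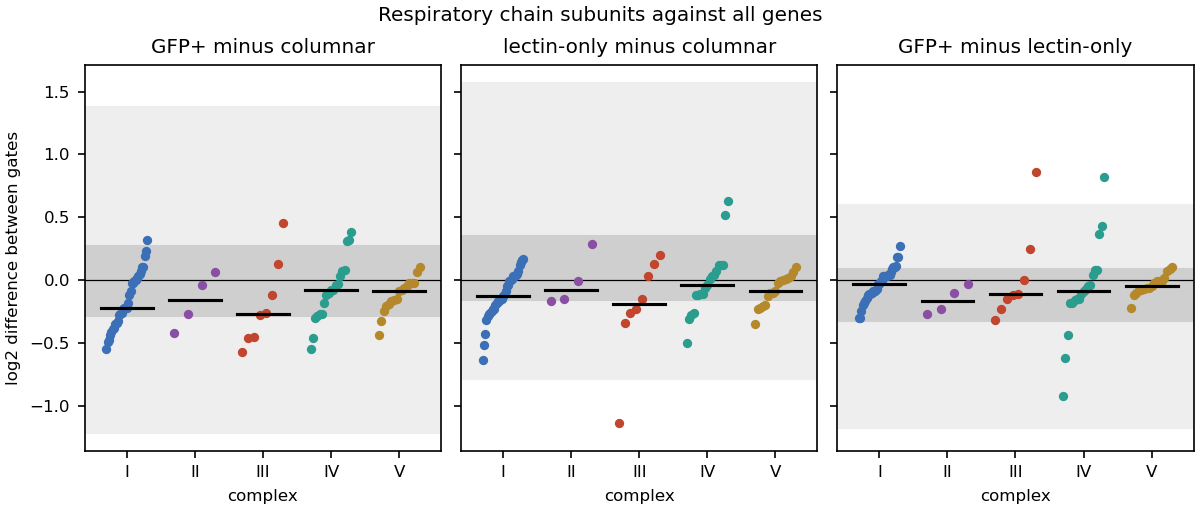
Log2 difference between gates for each of the 81 subunits (points, sorted within a complex) in 3 comparisons; black bars are medians of a complex, and grey bands span the 5th to 95th (light) and 25th to 75th (dark) percentiles of all 18193 genes. Most points sit inside the dark band, and the medians of the complexes lie between -0.27 and -0.03.

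Arrays that do not overlap between gates give the same picture. On all 3 GFP+ arrays, 21 members (25.9%) lay below all 3 columnar arrays, where 17.8% of all genes did, and 1 (Cox7a2l) lay above, where 15.8% did. In lectin-only against columnar 14 members (17.3%) lay below and 1 (Ndufa4) above, where all genes gave 8.61% and 16%. In GFP+ against lectin-only 3 lay below and 2 above, where all genes gave 13.3% and 5.24%. The direction of the last comparison depended on the scaling. With arrays centred, 24 members lay below and 1 above in GFP+ against columnar (all genes 23.5% and 12.6%), 37 below and 0 above in lectin-only against columnar (20% and 10.6%), and 1 below and 6 above in GFP+ against lectin-only (9.25% and 11.2%). Centring moved the median of all genes to -0.12, -0.17 and 0.06 in the same order, and that of the members to -0.21, -0.34 and 0.10. The members' median lay under that of all genes in both comparisons with the columnar gate. Centring shifts all genes of an array alike, so it could not change this order and is no check of it.

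**Figure D2:**
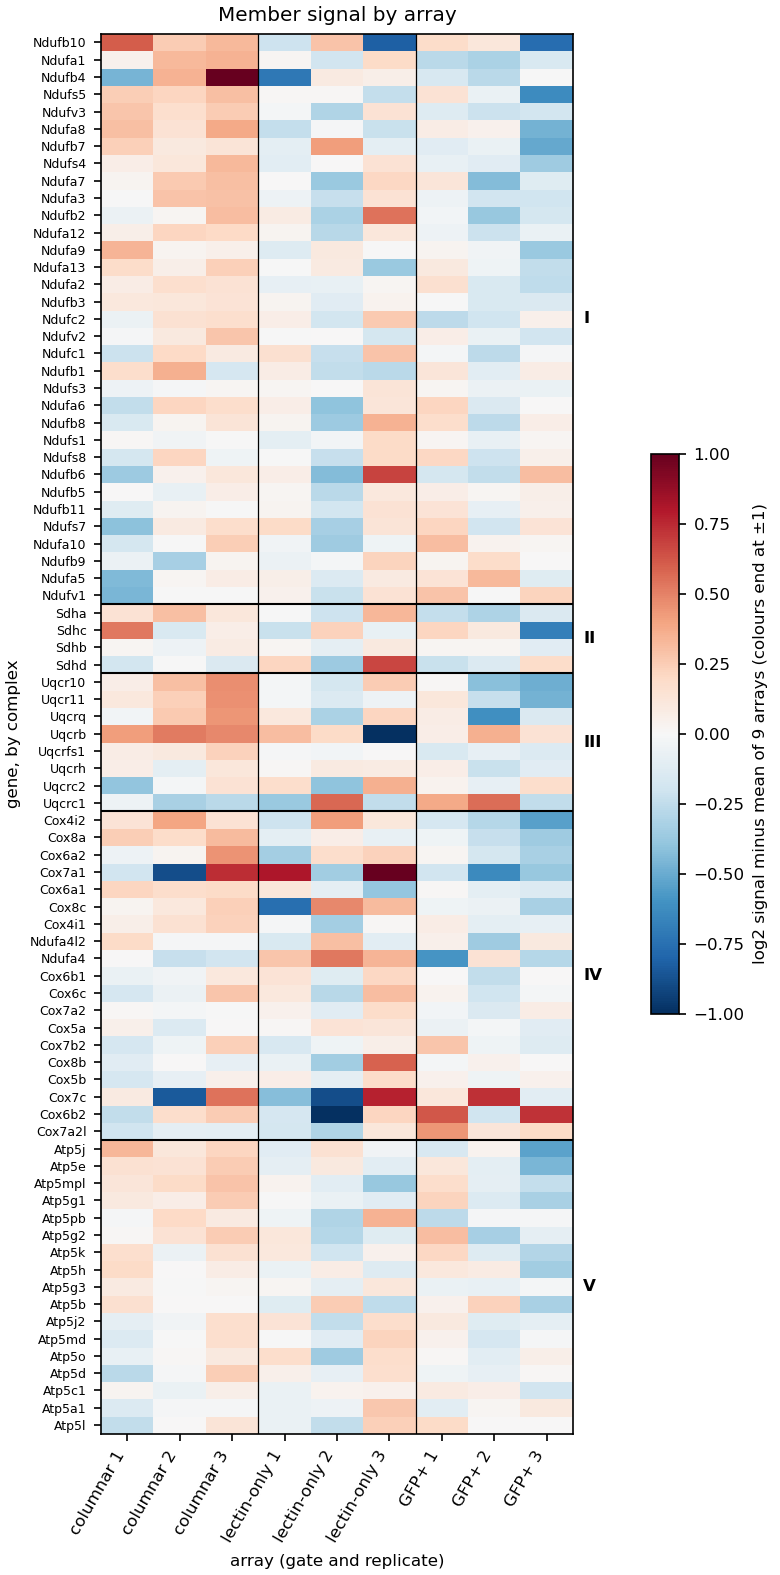
Signal of each of the 81 subunits on each of the 9 arrays, as the log2 signal minus that gene's mean over the arrays, in colours that end at 1 in either direction; rows are grouped by complex and sorted by the difference between the GFP+ and columnar gates. Most cells are pale, and the darkest cells belong to dim genes such as Ndufb4 and Cox7a1 and to single arrays such as Uqcrb on lectin-only replicate 3.

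The level of the whole set was followed array by array as the median deviation of its members from their means over 9 arrays. As deposited it was 0.02, 0.03 and 0.15 on columnar replicates 1 to 3, -0.00, -0.11 and 0.13 on the lectin-only arrays and 0.04, -0.10 and -0.11 on the GFP+ arrays. The gates overlapped, and the arrays of a gate had a pooled SD of 0.09. After centring, the columnar arrays lay at 0.07, 0.14 and 0.31, the lectin-only arrays at -0.09, -0.05 and -0.25 and the GFP+ arrays at 0.13, -0.10 and -0.12. On that scale all 3 columnar arrays lay above all 3 lectin-only arrays, while 1 GFP+ array lay within the columnar range. Lectin-only replicate 3 had the second highest member level as deposited and the lowest after centring.

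**Figure D3:**
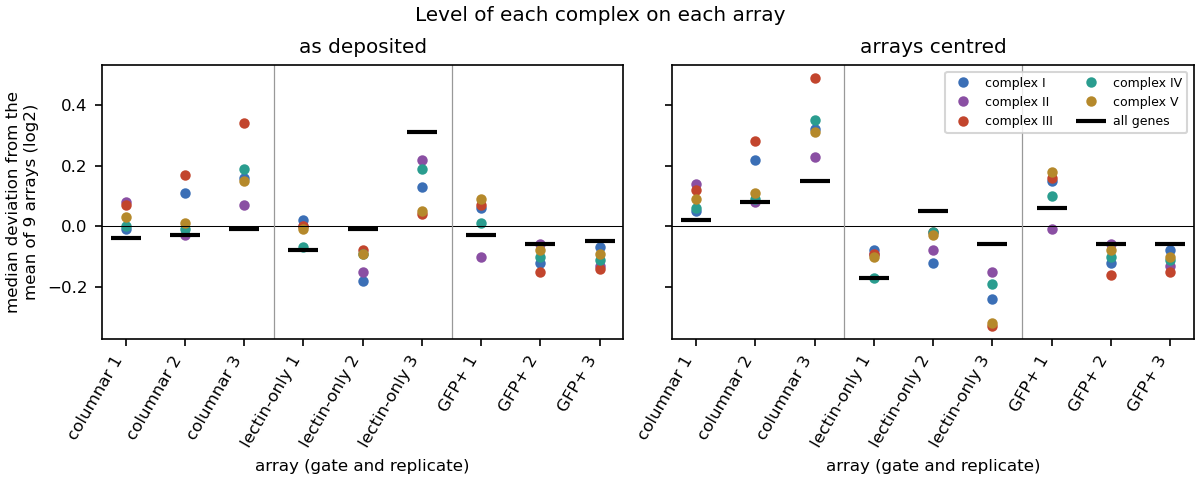
Median deviation (log2) of the members of each complex from their means over 9 arrays, on each array, with the deposited values at left and arrays centred on their medians at right; black bars are the median over all genes. On lectin-only replicate 3 the bar of all genes stands at 0.31 as deposited, above every complex, and at -0.06 after centring.

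Complex I feeds electrons from NADH into the chain. Its 33 members had a median difference of -0.22 in GFP+ against columnar, with 24 below 0, and of -0.13 and -0.03 in lectin-only against columnar and GFP+ against lectin-only. Among nuclear core subunits of complex I, 6 (Ndufv1, Ndufv2, Ndufs1, Ndufs3, Ndufs7 and Ndufs8) had a median of 0.01 and ran from -0.18 to 0.32 in GFP+ against columnar. The 27 accessory subunits, which surround the core, had a median of -0.23 there, and the difference between these groups was not tested. In all 4 core subunits with several bright probe sets (Ndufv1, Ndufv2, Ndufs7 and Ndufs8), those of the same gene lay on both sides of 0. Ndufs1 and Ndufs3 had only 1 probe set each. In 10 of the 33 members (30.3%) all GFP+ arrays lay below all columnar arrays, where 17.8% of all genes did. All 10 were accessory subunits, as were 27 of the 33 members.

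Ndufa1, a small accessory subunit in the membrane arm, read 11.99, 12.27 and 12.30 on columnar replicates 1 to 3, 11.97, 11.76 and 12.14 on the lectin-only arrays and 11.68, 11.63 and 11.80 on the GFP+ arrays. All GFP+ arrays lay below all columnar arrays, and the lectin-only arrays overlapped both gates. The difference in GFP+ against columnar was -0.49 (SE 0.17, adjusted p = 0.104, limma), and it was -0.57 with an adjusted p of 0.0483 (limma) after centring, which is past the threshold. Ndufv3, an accessory subunit of the NADH-binding module, read 13.01, 12.90 and 12.99 in the columnar gate, 12.71, 12.43 and 12.88 in the lectin-only gate and 12.60, 12.52 and 12.55 in the GFP+ gate. Its columnar arrays lay above the arrays of both other gates, at differences of -0.41 (adjusted p = 0.157, limma) and -0.29 (adjusted p = 0.373, limma), and after centring the lectin-only difference was -0.53 with an adjusted p of 0.0477 (limma).

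Ndufb10, an accessory subunit of the membrane arm, had the largest complex I difference from the columnar gate in both lectin-binding gates, with a wide spread between arrays. It read 12.26, 11.91 and 11.98 in the columnar gate, 11.45, 11.94 and 10.84 in the lectin-only gate and 11.84, 11.77 and 10.89 in the GFP+ gate. Replicate 3 was the lowest array in each lectin-binding gate. The differences were -0.55 for GFP+ (95% interval -1.29 to 0.18) and -0.64 for lectin-only (-1.38 to 0.09), and each rested in part on 1 array. Leaving out 1 array in turn moved the GFP+ difference between -0.72 and -0.25, the latter without GFP+ replicate 3. It moved the lectin-only difference between -0.91 and -0.36, the latter without lectin-only replicate 3, and between -1.25 and -0.48 after centring. Ndufv1, the core subunit that binds NADH, lay highest in the GFP+ gate at 12.54 ± 0.15 (SD, n = 3) against 12.22 ± 0.26 in the columnar gate (0.32, adjusted p = 0.364, limma). A second probe set of Ndufv1 gave 0.29 and another -0.06 in this comparison. In GFP+ against lectin-only the members furthest from 0 were Ndufb2 and Ndufb7, accessory subunits, both at -0.30 (adjusted p of 0.657 and 0.580, limma).

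Ndufb8, an accessory subunit whose protein is widely used to report on assembled complex I, gave different results on its 2 probe sets. Its brighter probe set had gate means of 12.15 in columnar, 12.15 in lectin-only and 12.14 in GFP+. The other one read 6.43, 6.22 and 5.92 on the columnar arrays, 7.48, 7.14 and 7.94 on the lectin-only arrays and 7.50, 7.28 and 7.63 on the GFP+ arrays. The columnar arrays lay below all others on that probe set, which was called higher in GFP+ (1.28, SE 0.24, adjusted p = 0.00728) and in lectin-only (1.33, SE 0.24, adjusted p = 0.00813, limma over all probe sets). Which transcript the second probe set reads was not tested. Ndufb4 was represented by a probe set with a mean of 2.95, below the background level on 8 of 9 arrays, so its difference of -0.52 in lectin-only against columnar says nothing of that gene. A probe set that also matches its copies Ndufb4b and Ndufb4c was left out of the fit and had gate means of 12.22 in columnar, 12.03 in lectin-only and 12.11 in GFP+.

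Complex II oxidises succinate in the citric acid cycle and is wholly encoded in the nucleus, so all 4 of its subunits were measured. Sdha, the flavoprotein that binds succinate, read 11.82, 11.98 and 11.79 in the columnar gate, 11.67, 11.47 and 12.01 in the lectin-only gate and 11.44, 11.37 and 11.53 in the GFP+ gate. Its GFP+ arrays lay below all columnar arrays, and the lectin-only arrays spanned the gap (GFP+ minus columnar -0.42, SE 0.18, adjusted p = 0.186, limma). A second bright probe set of Sdha gave -0.20. Sdhb, the iron-sulphur subunit, had gate means within 0.04 of each other, with a GFP+ minus columnar difference of -0.04 (95% interval -0.38 to 0.30). The membrane anchors Sdhc and Sdhd had differences of -0.27 and 0.06 in that comparison and of -0.17 and 0.29 in lectin-only against columnar, with arrays of all gates overlapping.

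Complex III passes electrons from ubiquinol to cytochrome c. Its 8 members had the lowest median of any complex in GFP+ against columnar, -0.27, with complex I close at -0.22. In 3 of the 8 (37.5%) all GFP+ arrays lay below all columnar arrays, where 17.8% of all genes did. Uqcr10, a small accessory subunit of the complex, had the largest difference of all members in this comparison. On its brightest probe set it read 11.88, 12.12 and 12.28 in the columnar gate, 11.80, 11.64 and 12.07 in the lectin-only gate and 11.83, 11.40 and 11.33 in the GFP+ gate. The GFP+ arrays lay below the columnar arrays by a margin of 0.05 at the closest pair, and the difference was -0.57 (SE 0.21, adjusted p = 0.108, limma).

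The other 2 probe sets of Uqcr10 were dimmer and moved further. The first read 9.59, 10.38 and 10.40 in the columnar gate, 9.67, 9.01 and 10.13 in the lectin-only gate and 8.90, 8.59 and 9.01 in the GFP+ gate (-1.29, SE 0.32, adjusted p = 0.0296, limma over all probe sets). The second read 9.95, 10.76 and 10.77, then 10.11, 9.66 and 10.28, then 9.60, 9.18 and 9.61 in the same order of gates (-1.03, SE 0.27, adjusted p = 0.0408, limma over all probe sets). All 3 probe sets put the GFP+ gate lowest and the columnar gate highest, and as readings of the same gene on the same arrays they are not separate evidence. Averaged over its probe sets, Uqcr10 was called lower in GFP+ than in columnar (-0.97, adjusted p = 0.0243, limma). Uqcr10 was the only member of 39 with several probe sets at a mean of 8 or more whose probe sets differed by over 0.5 in this comparison. The median range among the 39 was 0.13, and the sign was shared in 28.

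Uqcrb, named as a ubiquinone-binding subunit, had the largest difference of all members between lectin-only and columnar, and it came from 1 array. It read 12.83, 12.93 and 12.89 in the columnar gate, 12.72, 12.60 and 9.93 in the lectin-only gate and 12.48, 12.77 and 12.56 in the GFP+ gate. The difference was -1.14 (SE 0.61, adjusted p = 0.338, limma), and -0.23 without lectin-only replicate 3. Its other probe set read 11.81, 11.55 and 11.73 on the lectin-only arrays, with no drop on replicate 3, against 11.89, 11.66 and 11.86 in the columnar gate.

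**Figure D4:**
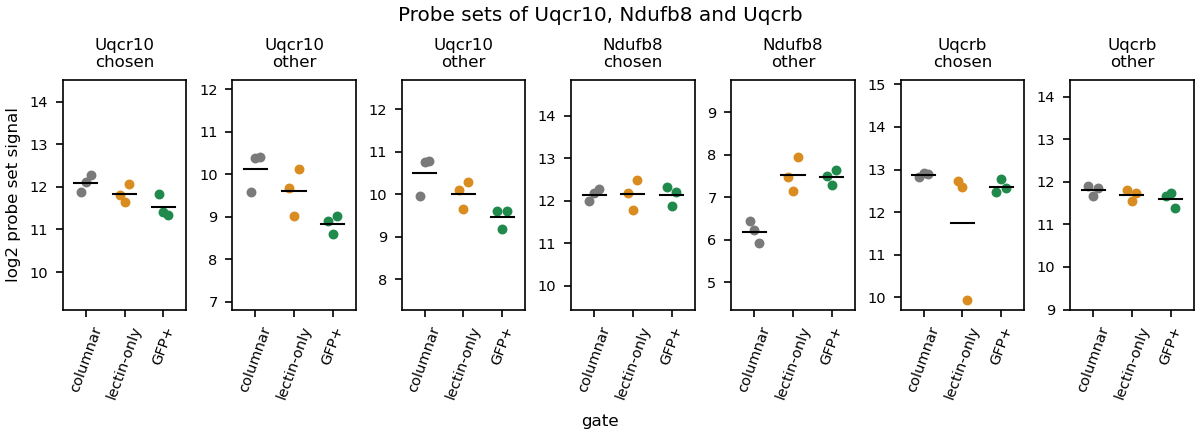
Log2 signal on each array (points) and gate mean (bars) for the chosen and the other probe sets of Uqcr10, Ndufb8 and Uqcrb, on axes of equal span. All 3 Uqcr10 probe sets are lowest in GFP+, the second Ndufb8 probe set is lowest in columnar, and the low lectin-only point of Uqcrb at 9.93 is missing from its other probe set.

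Uqcr11, a small subunit of the membrane part, read 10.97, 11.10 and 11.32 in the columnar gate, 10.84, 10.73 and 10.81 in the lectin-only gate and 10.98, 10.63 and 10.39 in the GFP+ gate. Its lectin-only arrays lay below all columnar arrays (-0.34, adjusted p = 0.371, limma), while GFP+ replicate 1 overlapped the columnar range (-0.46, adjusted p = 0.166, limma). The Rieske iron-sulphur protein Uqcrfs1 lay below the columnar arrays in both lectin-binding gates, at -0.26 for GFP+ and -0.15 for lectin-only. The core proteins went the other way in GFP+ against columnar without passing the test, with Uqcrc1 at 0.45 (95% interval -0.21 to 1.10) and Uqcrc2 at 0.13.

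Complex IV hands electrons to oxygen, and several of its nuclear subunits come as a widely expressed form and a form of restricted tissues. Its 19 members had medians of -0.08, -0.04 and -0.09 in GFP+ against columnar, lectin-only against columnar and GFP+ against lectin-only. Cox8a, the widely expressed form of subunit VIII, came closest to the threshold of all members. It read 11.05, 10.99 and 11.12 in the columnar gate, 10.71, 10.87 and 10.73 in the lectin-only gate and 10.76, 10.58 and 10.45 in the GFP+ gate. The columnar arrays lay above every other array, at a GFP+ difference of -0.46 (fold 0.727, SE 0.16, adjusted p = 0.0933, limma) and a lectin-only difference of -0.28 (adjusted p = 0.360, limma). The second bright probe set of Cox8a gave -0.43 for GFP+.

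Ndufa4, first assigned to complex I and found in complex IV, lay highest in the lectin-only gate. It read 11.76, 11.52 and 11.56 in the columnar gate, 12.03, 12.28 and 12.09 in the lectin-only gate and 11.16, 11.90 and 11.47 in the GFP+ gate. All lectin-only arrays lay above every other array, by 0.52 over columnar (95% interval 0.05 to 0.99, adjusted p = 0.179, limma) and by 0.62 over GFP+ (GFP+ minus lectin-only -0.62, adjusted p = 0.162, limma). After centring, the lectin-only range overlapped that of both other gates. The lectin-only gate was also the one with the highest leukocyte markers, and their part in this difference was not tested.

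Cox7a2l, which takes part in joining complexes III and IV into supercomplexes, lay highest in the GFP+ gate. It read 11.41, 11.52 and 11.51 in the columnar gate, 11.43, 11.31 and 11.72 in the lectin-only gate and 12.05, 11.73 and 11.80 in the GFP+ gate. On this probe set every GFP+ array lay above every other array under both scalings. The differences were 0.38 over columnar (adjusted p = 0.214, limma) and 0.37 over lectin-only (adjusted p = 0.357, limma). On its other probe sets all GFP+ arrays also lay above the columnar arrays. There lectin-only replicate 3 overlapped the GFP+ range as deposited, at 11.666 and 11.755 against lowest GFP+ arrays of 11.641 and 11.712. Cox7a2l was the only member to lie wholly above the columnar gate in GFP+.

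The isoform pairs were read gene by gene, since levels of different probe sets cannot be set against each other. Cox4i1, Cox6a1, Cox6b1, Cox7a2 and Cox8a, the widely expressed forms, were above background on all 9 arrays, with GFP+ minus columnar differences from -0.46 to -0.04. Of the restricted forms, Cox4i2 (a form of lung and hypoxic tissue) read 4.30, 4.56 and 4.31 in the columnar gate, 3.96, 4.58 and 4.28 in the lectin-only gate and 4.0, 3.88 and 3.62 in the GFP+ gate. The GFP+ arrays lay below the columnar arrays on a probe set not far above background (-0.55, SE 0.20, adjusted p = 0.117, limma). Cox7a1, the heart and muscle form of subunit VIIa, read 5.81, 5.11 and 6.74, then 6.81, 5.65 and 7.09, then 5.81, 5.36 and 5.62 in columnar, lectin-only and GFP+. The arrays of 1 gate differed by more than the gates did, at 0.63 for lectin-only against columnar (95% interval -0.38 to 1.65) and -0.92 for GFP+ against lectin-only (-1.93 to 0.09). The lectin-only difference from columnar was 1.07 without lectin-only replicate 2, 1.06 without columnar replicate 3, 0.35 without lectin-only replicate 3 and 0.24 without columnar replicate 2, with a range of 0.00 to 0.85 after centring. The Cox7a1 difference in GFP+ against lectin-only ran from -1.35 to -0.63 under the same omissions as deposited.

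Cox6b2, a form known from testis, read 8.81, 9.23 and 9.31 in the columnar gate, 8.89, 7.69 and 9.27 in the lectin-only gate and 9.68, 8.86 and 9.78 in the GFP+ gate. It was well above background on every array, and lectin-only replicate 2 was its lowest array (GFP+ minus lectin-only 0.82, SE 0.40, adjusted p = 0.393, limma). Cox6a2, the muscle form of subunit VIa, ran from 5.11 to 5.90 over all arrays, and Ndufa4l2, a hypoxia-induced relative of Ndufa4, from 4.74 to 5.40. Cox7b2 lay below the background level on all 9 arrays, Cox8b was above it on 2 and Cox8c on 8. Of 17 striated muscle markers, 1 was called, Tnni2, which was higher in both lectin-binding gates than in columnar, and the array medians of that list ran from 3.14 to 4.55.

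**Figure D5:**
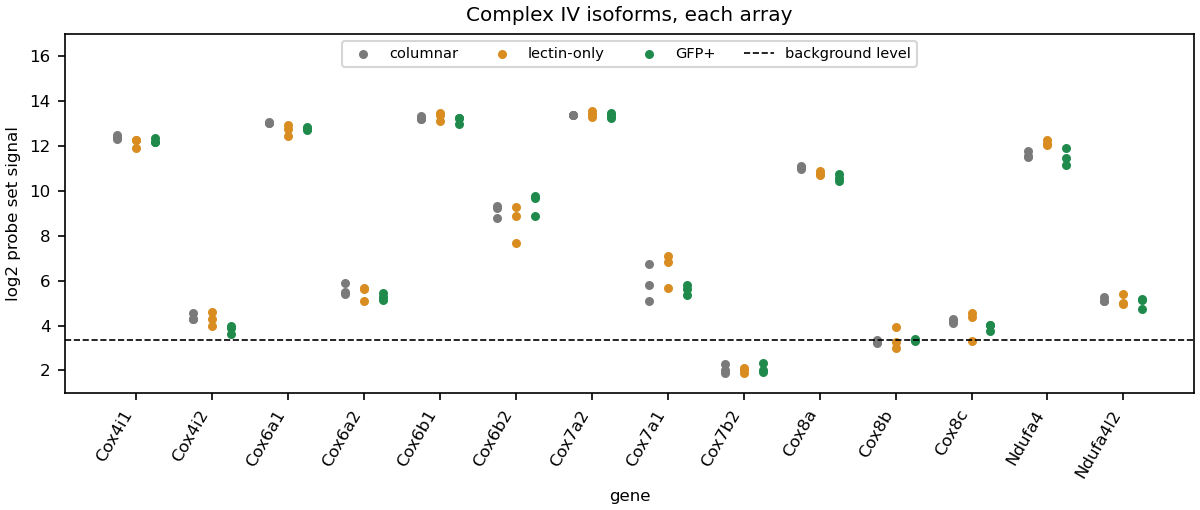
Log2 probe set signal on each array for the isoforms of complex IV subunits and for Ndufa4 and Ndufa4l2, coloured by gate, with the background level of 3.35 as a dashed line. The gates overlap for most genes, Ndufa4 is highest in lectin-only, Cox8a is highest in columnar, and Cox7b2 lies under the line; heights of different genes are not comparable.

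ATP synthase makes ATP in its F1 head, driven by rotation of a ring of subunit c in the membrane part, Fo. Its 17 members ran from -0.44 to 0.10 in GFP+ against columnar, with a median of -0.09 and 15 below 0. The 5 F1 subunits had a median of -0.02 and the 12 subunits of Fo and the stalk -0.15. Atp5j, coupling factor 6 of the stalk, read 12.07, 11.85 and 11.95 in the columnar gate, 11.62, 11.89 and 11.70 in the lectin-only gate and 11.58, 11.77 and 11.20 in the GFP+ gate. The GFP+ arrays lay below the columnar arrays (-0.44, SE 0.19, adjusted p = 0.184, limma), with lectin-only overlapping both. Atp5e, the epsilon subunit of F1, also lay below in GFP+ (-0.33, adjusted p = 0.326, limma).

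In the F1 head, the subunits of the hexamer and of the shaft lay close to 0. Atp5a1 and Atp5b, which form the hexamer that makes ATP, had GFP+ minus columnar differences of 0.06 and -0.08, and the shaft subunit Atp5c1 had -0.02. The 3 genes of the identical subunit c, Atp5g1, Atp5g2 and Atp5g3, had -0.21, -0.17 and -0.09. In lectin-only against columnar the member furthest from 0 was Atp5mpl, a small Fo subunit, at -0.35 (adjusted p = 0.316, limma), followed by Atp5g2 at -0.23. No complex V member passed 1 log2 unit in any comparison.

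Genes that work with the chain were read from further lists. Of 18 measured genes for mobile electron carriers and the enzymes that feed them, 0 were called in any comparison (limma), and the median was -0.13 in GFP+ against columnar. Cyc1, the complex III subunit in this list, had 0.20 in that comparison (SE 0.20, adjusted p = 0.629, limma). Of 44 assembly factors 1 was called, Ndufaf7, a complex I assembly factor, lower in GFP+ than in columnar (-0.63, adjusted p = 0.0294, limma). Of 14 genes for inner membrane carriers, outer membrane channels and proteins of membrane shape 0 were called in any comparison (limma). In the citric acid cycle 3 of 18 genes were called, all lower in GFP+ than in columnar, a share near the 14.1% of all genes called there. They were Idh2, the NADP-dependent isocitrate dehydrogenase (-1.26, adjusted p = 0.0122), the pyruvate carboxylase Pcx (-1.17, adjusted p = 0.0112) and the succinate-CoA ligase subunit Suclg1 (-0.76, adjusted p = 0.0125, limma for each). In glycolysis 3 of 15 were called in that comparison (14.1% of all genes), with the hexokinase Hk2 higher (0.82) and the lactate dehydrogenase subunit Ldhb (-1.48) and the lactate exporter Slc16a3 (-1.10) lower. Neither list had a call in the other 2 comparisons.

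Of 20 measured regulators of mitochondrial genes, Myc and Ppara were called higher and Esrrg lower in GFP+ than in columnar, 3 in all, which is again near the 14.1% of all genes. The same 3 were called in the same directions in lectin-only against columnar, where 10.6% of all genes were. In GFP+ against lectin-only 2 of the 20, Myc and Ppara, were called higher, where 4.17% of all genes were called. Myc, a growth-promoting transcription factor, had gate means of 6.95 ± 0.38 in columnar, 8.80 ± 0.31 in lectin-only and 10.46 ± 0.37 in GFP+ (SD, n = 3 each), a difference of 3.51 for GFP+ against columnar (adjusted p = 4.5e-05, limma). The fatty acid oxidation regulator Ppara rose by 2.43 (adjusted p = 3.6e-05, limma) and the orphan receptor Esrrg, an activator of oxidative genes, fell by 3.13 (adjusted p = 0.00354, limma) in that comparison. The factors whose letters were searched in the promoters were not called. Nrf1 had 7.35 ± 0.68 in columnar, 7.42 ± 0.46 in lectin-only and 7.42 ± 0.27 in GFP+, and its difference for GFP+ against columnar was 0.07 (SE 0.35, adjusted p = 0.941, limma), while Gabpa had 0.27 and Yy1 0.14. The coactivator Ppargc1a (-0.60) and the mitochondrial DNA factor Tfam (0.49) did not pass the test either.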

How the data were processed

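RNA of 9 sorted samples (3 gates, 3 biological replicates each) was measured on Affymetrix mouse arrays, and the authors deposited log2 probe set signals made with RMA, per the submitters' processing notes. Its software and version are not given in the sources used here. Of 45101 probe sets, 34945 had 1 gene symbol, 932 several and 9160 none, and 64 were controls. Of those with 1 symbol, 34741 were matched to a RefSeq gene (GRCm38.p6) and took its symbol, whether or not it differed. Probe sets with several symbols were left out, among them 9 with a symbol of the rule, 6 of which name a member and the others Ndufa11 or Ndufs6. Of 81 chosen member probe sets, 21 carry a suffix marking probes that can match other genes.

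Gate means were fitted to all 9 arrays with limma 3.58.1 in R 4.3.3 (lmFit, eBayes), and p-values were adjusted by Benjamini-Hochberg over 18193 genes; the procedure was tested on simulated data. Array number limits the precision. P-values measure the spread between these samples.

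Members and lists were chosen with earlier results of these data known. Genes were named by fixed rules (the 2 members furthest from 0 in each complex and comparison, all Sdh genes and isoform pairs, and up to 3 called genes of each list and direction); other members, and Nrf1, Gabpa, Yy1, Tfam and Ppargc1a, were named after their values were seen. Alternatives were other scalings, probe set choices, variance models, filters and call rules, the replicate number as a block, and leaving out each array. Testing each probe set by itself was added after seeing the data.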

Additional observations from a re-analysis of the deposited data

How the results depend on the processing

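Counts of called members moved with the settings (limma, adjusted p). In GFP+ against columnar, 0 became 1 with arrays centred (Ndufa1, lower), 1 with the mean of all probe sets (Uqcr10, lower), 2 with the probe set of largest spread (Uqcr10 lower, Ndufb8 higher), 4 with a variance trend and robust fit (Cox8a, Ndufa1, Ndufv3 and Uqcr10, all lower) and 3 probe sets with each tested by itself. In lectin-only against columnar, 0 became 1 with arrays centred (Ndufv3, lower), 1 with the probe set of largest spread (Ndufb8, higher) and 1 with each probe set tested by itself. In GFP+ against lectin-only every setting run gave 0. Ndufb8 turned from -0.01 to 1.28 in GFP+ against columnar with the probe set of largest spread, another probe set of that gene. Further quantile normalization, the filter on dim genes, the 2-fold floor and fitting only the gates compared left each count at 0.

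Same-numbered arrays of different gates did not all deviate together (correlations from -0.07 to 0.331). Differently numbered arrays gave -0.472 to 0.17, so the highest correlations were between same-numbered arrays. The labels do not say whether a shared number marks the same mice, and the numbers were not taken as pairs. With the replicate block the counts of called members stayed 0, 0 and 0, and with the replicate block and arrays centred they were also 0. Each gate held each replicate number once, so the block could change the standard errors but not the differences or their medians. With arrays centred, the medians of complexes I to V were -0.37, -0.32, -0.43, -0.28 and -0.33 in lectin-only against columnar. In GFP+ against lectin-only they were 0.13, -0.01, 0.04, 0.07 and 0.11, where the deposited scaling gave medians below 0. The complex V median in GFP+ against columnar was -0.17 with arrays centred and -0.19 with the probe set of largest spread.

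Leaving out each array in turn, as deposited or centred, gave 0 to 1 called members in GFP+ against columnar (Ndufa1 without columnar replicate 1, Cox4i2 without lectin-only replicate 2 and Uqcr10 without GFP+ replicate 1, each after centring) and 0 in the other comparisons. Medians in GFP+ against columnar ran from -0.36 to -0.14 for complex I, -0.35 to -0.03 for complex II, -0.40 to -0.23 for complex III, -0.23 to -0.01 for complex IV and -0.23 to -0.05 for complex V. Medians in lectin-only against columnar ran from -0.43 to -0.07 for complex I, -0.33 to 0.01 for complex II, -0.53 to -0.11 for complex III, -0.30 to 0.09 for complex IV and -0.35 to -0.01 for complex V. Medians in GFP+ against lectin-only ran from -0.08 to 0.19 for complex I, -0.24 to 0.02 for complex II, -0.16 to 0.12 for complex III, -0.15 to 0.14 for complex IV and -0.10 to 0.22 for complex V. With 3 arrays per gate and a median standard error of 0.19, small differences are not resolved, and the cause of the shifts with probe set and variance model was not tested.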
